A study of Mus musculus with 33 samples.

Results

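The cytosolic ribosomal protein genes were examined in bulk RNA-seq of the mouse hypothalamus after ovariectomy (OVX), the surgical removal of the ovaries. Members were the genes whose symbol starts with Rpl or Rps and a digit, together with Rplp0, Rplp1, Rplp2 and Rpsa. Names marked as pseudogenes by -ps were left out, as were the S6 kinases (Rps6k) and genes named Rps19bp. This gave 93 of 41565 named genes: 43 genes of the large subunit, 31 of the small subunit, 3 of the P-stalk and 16 gene copies such as Rps27l or Rpl3l. The 77 genes that are not copies are called canonical here. The name rule does not reach Fau, which encodes a ribosomal protein fused to a ubiquitin-like protein.

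The 33 libraries came from female C57BL/6 wild-type mice. Tissue was the posterior hypothalamus (PH, 16 libraries), which holds metabolic and reproductive centers, or the preoptic area (POA, 17 libraries), which holds neurons that control body temperature. Mice were intact (4 PH and 5 POA libraries), 14 days after OVX (6 and 6) or 4 months after OVX (6 and 6). Intact mice were killed in diestrus and were young adults, so the group at 4 months after OVX was also older than its controls, and age and time since OVX cannot be told apart. One POA library at 14 days carries an incomplete group label, and its time was taken from its title. Sample titles call the intact mice sham. Every group held libraries of both labelled batches, called batch 1 and batch 2. Values are the deposited normalized signal, a linear scale with a floor near 22.1, and differences are on the log2 scale.

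Each cytosolic ribosome is built from a large and a small subunit, and nearly every ribosomal protein is present once per ribosome. Mammalian ribosomal protein genes are expressed in all cell types at high level and in similar amounts. Their mRNAs start with a cytosine followed by a run of pyrimidines, the 5′ terminal oligopyrimidine (TOP) motif, through which mTORC1 and Larp1 regulate how strongly they are translated. Regulation through this motif acts on translation, which mRNA levels do not show. Estrogen receptors are found in neurons of both regions.

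The TOP start is the feature these mRNAs are known for, and it is shown for members of the large subunit, the P-stalk and the small subunit. Each line gives 30 bases of the RefSeq promoter table (GRCm38.p6), with 15 bases before the annotated start, and capitals mark the unbroken run of C and T from the start on.
Rpl15: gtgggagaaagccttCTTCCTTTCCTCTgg
Rplp2: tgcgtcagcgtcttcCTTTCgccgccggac
Rps6: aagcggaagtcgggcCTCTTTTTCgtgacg
Rps18: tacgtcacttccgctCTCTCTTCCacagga
These windows lie at chr14:18270972-18271001 on the minus strand for Rpl15, at chr7:141447636-141447665 on the plus strand for Rplp2, at chr4:86857353-86857382 on the minus strand for Rps6, the target of S6 kinase, and at chr17:33955651-33955680 on the minus strand for Rps18. A C at the start with 4 pyrimidines after it was found in 13 of 67 member promoters (57 genes), or 19.4%, against 2.51% of 32851 promoters in the table. Annotated starts can lie some bases from the start in use, so the share is that of these annotated windows. The letters CCGGAAG occurred on either strand in 37.3% of member promoters and in 8.86% of all promoters of the same 300 bases.

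In levels per kilobase of coding sequence, Rpl41, which encodes the smallest ribosomal protein, stood first in both regions. The length used was that of the coding sequence alone, 75 bases for Rpl41, so untranslated parts of the transcript were left out. This raises the level per kilobase of genes with short coding sequences. Undivided, the PH mean of Rpl41 was 8854, below Rpl3 with 25977, Rpl4 with 21213 and Rps24 with 16515. The level per kilobase of Rpl41 was 118048 ± 13987 (SD, n = 16) in PH and 123051 ± 12769 (SD, n = 17) in POA. Rps24 came next with 41390 ± 9536 in the PH, followed by Rps29 with 34422 ± 7440 and Rpl21 with 30298 ± 7873. The gap between Rpl41 and Rps24 exceeded the SD of either gene, whereas Rps24 and Rps29, and Rps29 and Rpl21, differed by less than 1 SD. The POA had the same first 4 genes in the same order, with Rps24 at 38806 ± 7536 and Rps29 at 38094 ± 6399. At the lower end stood Rpl12, a protein at the base of the P-stalk, with a PH level per kilobase of 810.9 ± 207.7. Rpl5, which binds the 5S rRNA, had 1175 ± 419.9 and Rpl10, which joins the large subunit last, had 2576 ± 574.9. These low values belong to single table entries whose sequence is shared with near-identical genes, as described further on.

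Most members varied little between libraries. The coefficient of variation over all libraries of a region had a median of 15.3% over the 77 canonical genes in PH and 11% in POA. Rpl7a varied least, with 8.94% in PH and 5.67% in POA. Rps27 varied most, with 182% and 173%. The members together held 0.848% to 1.33% of all deposited signal in the PH libraries and 1.06% to 1.27% in the POA libraries.

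Libraries of the same group differed from each other in the median of the canonical genes. For each library, the median deviation of the 77 canonical genes from their regional means was computed on the log2 scale. In the PH the 4 intact libraries had medians of 0.03, -0.05, -0.16 and 0.05. The 6 libraries at 14 days ran from -0.11 to 0.16 with a median of -0.01, and those at 4 months from -0.19 to 0.25 with a median of 0.01. In the POA the 5 intact libraries had 0.06, -0.09, -0.02, -0.10 and -0.01. The 6 POA libraries at 14 days ran from -0.20 to 0.09 with a median of 0.04, and the 6 at 4 months from -0.09 to 0.15 with a median of -0.02. The ranges of the 3 groups overlapped in both regions. The within-group SD of the median log2 value of all tested members, copies included, was 0.12 in PH and 0.11 in POA. Nuclear genes of oxidative phosphorylation were close to the ribosomal protein genes in some libraries, such as POA 14-day replicate 6 (-0.20 for the ribosomal protein genes and -0.22 for oxidative phosphorylation) and POA 4-month replicate 2 (0.15 and 0.14). Over all libraries of a region, the ribosomal protein median and that of oxidative phosphorylation had a Pearson r of 0.829 in PH (n = 16) and 0.961 in POA (n = 17). Against the median of the mitochondrial ribosomal protein genes r was 0.718 and 0.924. In some PH libraries the medians of ribosomal protein and oxidative phosphorylation genes lay further apart. PH 4-month replicate 5, which had the highest ribosomal protein median of the 33 libraries, had 0.25 and 0.03, and PH intact replicate 3 had -0.16 and -0.06. The median of all genes tested stayed within 0.02 of 0 in every library.

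**Figure D1:**
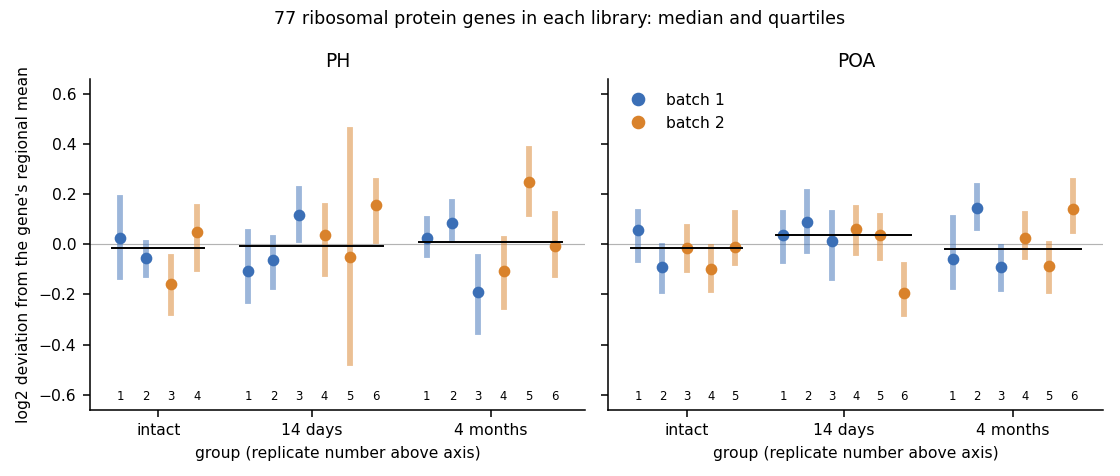
Points show the median log2 deviation of the 77 canonical ribosomal protein genes from their regional means in each library, bars their lower and upper quartiles, and black lines the group medians; colors mark the labelled batch. Group medians lie between -0.02 and 0.04, while single libraries run from -0.20 to 0.25, and PH 14-day replicate 5 has by far the widest quartiles.

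The first question was whether the ribosomal protein genes responded to short or long estrogen withdrawal in the PH. No member passed the test there at either time. Whole tissue was used, so fewer cells of a type and less RNA per cell cannot be told apart. At 14 days, 0 of 87 members tested had an adjusted p under 0.05 (limma, Benjamini-Hochberg over 21998 genes), where 0% of all genes were called. No member reached an unadjusted p under 0.05 either, against 1.57% of all genes higher and 1.47% lower. At 4 months, 0 of 87 members were called beside 0.0318% of all genes, and 1 member was higher at an unadjusted p under 0.05 and 0 lower, where 2.95% and 3.12% of all genes were. No member of the PH separated any OVX group from intact without overlap, a pattern shown by 0.277% of all genes above and 0.295% below intact at 14 days and by 0.555% and 0.395% at 4 months.

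The small fitted differences in the PH were mostly above 0. At 14 days 74 of 87 members, or 85.1%, had a fitted log2 difference above 0, beside 49.4% of all genes. Their median was 0.08, against -0.00177 over all genes. It lies below the within-group SD of 0.12, which is the spread of single libraries without SV1 and not the error of a group difference. At 4 months 64 of 87, or 73.6%, were above 0 beside 47.2% of all genes, with a median of 0.04. Many members moved together from library to library. With group means removed, the median pairwise r among the 77 genes over 16 PH libraries was 0.318, and 69.1% of pairs were above 0. The members therefore do not count as separate observations of a direction. In batch 1 alone the PH median was 0.01 at 14 days and -0.02 at 4 months, and in batch 2 alone it was 0.12 and 0.10. Without PH intact replicate 3 the median at 14 days was 0.04 and that at 4 months was -0.01. It was also below 0 at 4 months without PH 4-month replicate 5 (-0.00316). The 95% interval of the difference lay within ±0.5 for 76 of 87 members at 14 days and for 78 at 4 months.

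In the POA no member passed either. At 14 days 0 of 88 members were called beside 0.00468% of 21365 genes (limma, Benjamini-Hochberg), and at 4 months 0 of 88 beside 0.0936%. At an unadjusted p under 0.05, 0 members were higher and 1 lower at 14 days, where 2.84% and 3.3% of all genes were. At 4 months 2 were higher and 1 lower, which is 2.27% and 1.14% of members, against 4.1% and 4.4% of all genes. No member separated an OVX group from intact without overlap, where 0.267% of all genes lay above and 0.145% below at 14 days, and 0.412% and 0.253% at 4 months. The median log2 difference was 0.04 at both times, with 65 and 64 of 88 members above 0 (73.9% and 72.7%, beside 47.8% and 46.5% of all genes). These shares depended on the scaling. With each library centred on its median gene they were 62.5% and 63.6%, and with quantile normalization 85.2% and 79.5%. In batch 1 alone the POA medians were 0.07 and 0.04, and in batch 2 alone 0.01 and 0.06. The median at 4 months came to 0.000768 without POA 4-month replicate 6 and to 0.00843 without POA intact replicate 2, and that at 14 days to 0.01 without POA intact replicate 2. The 95% interval lay within ±0.5 for 82 of 88 members at 14 days and 81 at 4 months.

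**Figure D2:**
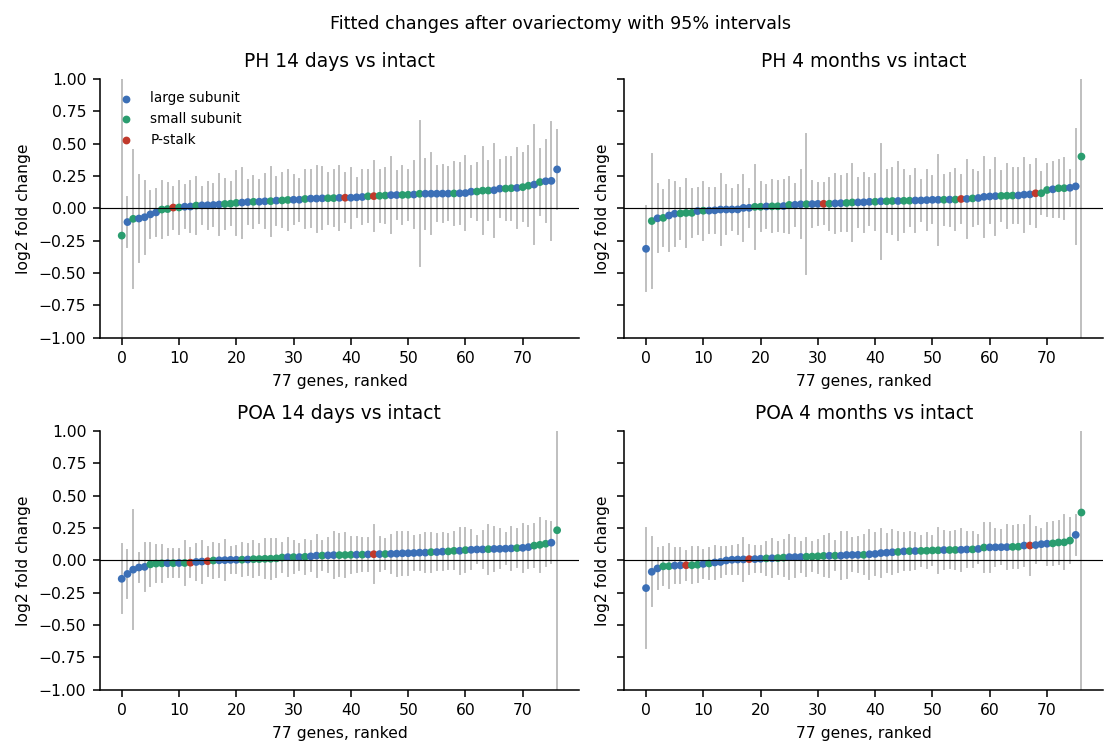
Each point is the fitted log2 difference of 1 of the 77 canonical genes from intact, ranked within each comparison and colored by subunit, with its 95% interval in gray; the axis ends at -1 and 1, past which only the intervals of Rps27 run. Almost all intervals cross 0, and most points lie slightly above it in all 4 comparisons.

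Both subunits had similar values. In the PH at 14 days the 43 large subunit genes had a median log2 difference of 0.08 and the 31 small subunit genes 0.08, and at 4 months the values were 0.05 and 0.05. In the POA they were 0.05 and 0.04 at 14 days and 0.04 and 0.07 at 4 months. The 3 P-stalk genes encode acidic proteins that recruit elongation factors to the ribosome. Their medians were 0.08 and 0.07 in PH and -0.01 and 0.01 in POA.

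The direct comparison of 4 months with 14 days gave no called member in either region. In the PH 0 of 87 were called beside 0.00909% of all genes, with 1 member higher at 4 months and 0 lower at an unadjusted p under 0.05 (2.07% and 2.02% of all genes). In the POA 0 of 88 were called beside 0.0281%, with 1 member higher and 2 lower (2.47% and 2.64% of all genes). No member's libraries at 4 months all lay above or below those at 14 days, which held for 0.127% and 0.109% of all genes in PH libraries and for 0.0702% and 0.0421% in POA libraries. The median difference, 4 months minus 14 days, was -0.03 in the PH, where 28 of 87 members (32.2%, beside 47.2% of all genes) were above 0, and 0.01 in the POA, where 47 of 88 (53.4%, beside 48.9%) were. The PH value was 0.02 without PH 4-month replicate 3, and the POA value was -0.03 without POA 14-day replicate 6 and also without POA 4-month replicate 6. These comparisons share libraries with those against intact, so they are no separate line of data.

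The response in the PH was then set against that in the POA in a single fit of all 33 libraries. No member's response passed the test of a difference between the regions at 14 days (0 of 88, beside 0.00452% of 22141 genes; limma, Benjamini-Hochberg) or at 4 months (0 of 88, beside 0.00903%). None reached an unadjusted p under 0.05, where 1.34% of all genes were higher and 1.67% lower at 14 days, and 1.92% and 2.16% at 4 months. The median of PH minus POA responses was 0.05 at 14 days, with 64 of 88 members (72.7%) above 0 beside 51% of all genes. This median changed sign without PH intact replicate 3 (-0.00657) and without POA 14-day replicate 6 (-0.00218). At 4 months it was -0.000788, with 44 of 88 (50%) above 0 beside 49.7%, and without single libraries it ran from -0.05 (without PH intact replicate 3) to 0.04 (without PH 4-month replicate 3). The share at 14 days was 80.7% with median centring and 54.5% with quantile normalization, and the 4-month share was 56.8% and 35.2%. The 95% interval of this difference lay within ±0.5 for 73 of 88 members at 14 days and 75 at 4 months.

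Rps4l, a copy of Rps4x, had the smallest p at 14 days in the POA. Its intact POA values were 965.0, 649.2, 971.6, 1018 and 1152. The 14-day libraries ran from 614.7 to 914.9 with a median of 759.2, and the 4-month libraries from 744.1 to 1006 with a median of 873.4. The 14-day libraries were mostly lower, and POA intact replicate 2 fell among them. The difference at 14 days was -0.31 (SE 0.12, 95% interval -0.56 to -0.06), with an adjusted p of 0.799 (limma, Benjamini-Hochberg). In the PH its difference at 14 days was 0.01 (95% interval -0.30 to 0.32).

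Rpl37, a small zinc finger protein of the large subunit, had the smallest p at 14 days in the PH. Its intact PH values were 3068, 3402, 3335 and 4101, and the 14-day libraries ran from 3726 to 5791 with a median of 4195. The highest value came from PH 14-day replicate 5, which stands apart from the other libraries. The difference was 0.30 (95% interval -0.01 to 0.61), with an adjusted p of 0.99989 (limma). At 4 months it was 0.09.

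Other members had an unadjusted p under 0.05 in the POA at 4 months. Rpl14 had a difference of 0.13 (95% interval 0.01 to 0.24, adjusted p of 0.552, limma). Rps23rg1, a retrocopy of Rps23, had -0.29 (adjusted p of 0.522, limma), at values of 35.82 to 55.82 that lie close to the floor.

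Several members are in common use as reference genes for qPCR. Rplp0, the core protein of the P-stalk, had PH values of 5083, 5783, 6088 and 6706 in intact mice, from 3450 to 7192 with a median of 5097 at 14 days and from 5020 to 7517 with a median of 6263 at 4 months. In the POA it had 5853, 5757, 6951, 6774 and 7027 in intact mice, with medians of 6265 at 14 days and 6256 at 4 months. No group stood apart. Its log2 differences from intact were 0.01 and 0.03 in PH and -0.02 and 0.01 in POA, with 95% intervals between -0.16 and 0.19. Rpl13a, a large subunit protein, differed by 0.08 and 0.06 in PH and 0.08 and 0.12 in POA, and Rps18 by 0.03, -0.04, 0.04 and 0.03. Rps29 had wider intervals, up to 0.46 at 14 days in the PH, where its difference was 0.20. Over the 6 reference genes (these, Rpl19 and Rpl32), 0 were called in any comparison with intact (limma, Benjamini-Hochberg), and 0 had an unadjusted p under 0.05. Rpsa, which is also known as the laminin receptor, differed by -0.01 and 0.02 in PH and 0.04 and 0.08 in POA.

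Rps6, the protein phosphorylated as a readout of mTORC1 activity, had intact POA values from 10368 to 12408 and 4-month values from 11261 to 12773. Its differences from intact were 0.10 and 0.14 in PH and 0.03 and 0.02 in POA, and none passed the test.

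Shorter members had the larger fitted differences. Over the 77 canonical genes, the log2 difference from intact and the coding length had a Spearman rho of -0.48 in the PH at 14 days, -0.40 at 4 months, and -0.38 and -0.36 in the POA. With no covariate rho was -0.22 and -0.38 in PH and -0.31 and -0.33 in POA. These are correlations across genes that share all libraries, and the comparisons within a region share their intact libraries. The relation was not examined in genes other than members. The 9 genes with coding sequences under 300 bases (Rpl37, Rpl37a, Rpl38, Rpl39, Rpl41, Rps21, Rps27, Rps28 and Rps29) had medians of 0.15, 0.10, 0.08 and 0.13 in the same order, and the 22 genes of 600 bases or more had 0.05, 0.03, 0.01 and 0.02. Of the 9 short genes, 8 were above 0 in the PH at 14 days and 9 in each of the other comparisons. Rps21, a small subunit protein, had differences of 0.14 and 0.15 in PH and 0.13 and 0.15 in POA, none of which passed the test. Within single batches rho was uneven, from -0.55 in PH batch 1 to -0.05 in PH batch 2 at 14 days, and -0.25 and -0.17 in the PH at 4 months. In the POA it was -0.34 and -0.30 at 14 days and -0.34 and -0.19 at 4 months.

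**Figure D3:**
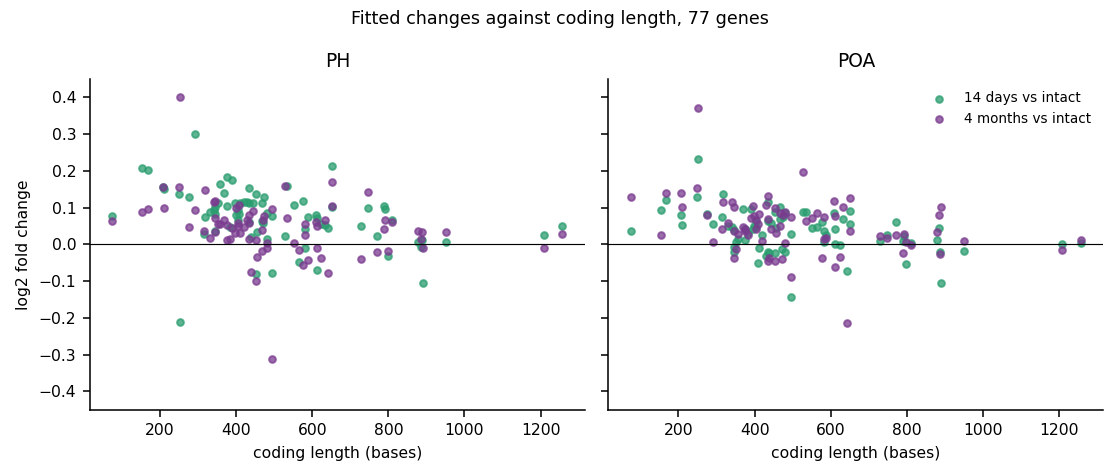
Each point is a canonical gene, with the length of its coding sequence in bases against its log2 difference from intact at 14 days (green) or 4 months (purple). Of the 9 genes under 300 bases, 8 or 9 lie above 0 in each comparison, and of the 22 genes of 600 bases or more 14 to 18 do, with smaller medians of 0.01 to 0.05.

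The differences of the members that passed a test ran between the labelled batches. This comparison was chosen after the data were seen and was fitted with the group in the model. In the POA 21 of 88 members (23.9%) were higher in batch 2, beside 20% of all genes, and 33 (37.5%) were lower, beside 19.7% (limma, Benjamini-Hochberg, adjusted p under 0.05). The higher set held the 3 P-stalk genes Rplp0, Rplp1 and Rplp2, with Rpl8, Rpl13, Rps2, Rps9 and Rps19. The lower set held Rps24, Rpl21, Rpl23a, Rpl26 and Rpl4. In the PH 0 of 87 members were called over all libraries, beside 0.786% of all genes higher and 0.495% lower. Without PH 14-day replicate 5, 20 members (23%) were higher beside 13.3% and 13 (14.9%) lower beside 10.9%. Of the members higher in batch 2, 19 were shared by both regions, 90.5% of those of the POA and 95% of those of the PH, beside 58.8% and 85.9% over all genes called. Of the lower members 13 were shared, 39.4% of those of the POA and 100% of those of the PH, beside 47.7% and 83.5% over all genes called.

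Some of these calls belong to single entries. When each of the 77 canonical genes was summed with its near-identical entries, 16 were higher in batch 2 and 30 lower in the POA, beside 20% and 19.7% of all genes, where the single entries had 21 and 29. Rpl10a, Rpl11, Rpl27, Rps12 and Rps7 were called higher as single entries and had differences of 0.03, -0.00206, -0.07, 0.06 and -0.10 as sums, none of which passed the test. Rpl27a and Rps23 were among the lower genes that lost the call on the sums, and Rpl19, Rpl36a, Rps13 and Rps6 gained it. In the PH without 14-day replicate 5 the sums had 16 of 77 higher and 13 lower, beside 13.4% and 10.9% of all genes.

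Single genes showed the batch difference without overlap. Rplp0 ran from 5009 to 6040 with a median of 5641 in the 8 POA libraries of batch 1, and from 6472 to 7473 with a median of 6951 in the 9 of batch 2. The log2 difference was 0.32 (SE 0.04, adjusted p of 8.66e-06, limma). Every POA library of batch 2 therefore lay above every library of batch 1, whatever its group. Rpl13, a large subunit protein, ran from 6973 to 8663 in batch 1 and from 9246 to 11429 in batch 2, a difference of 0.40 (SE 0.05, adjusted p of 3.26e-06, limma). Rps24, a small subunit protein mutated in Diamond-Blackfan anemia, went the other way, from 16487 to 19571 in batch 1 and from 10748 to 14971 in batch 2, a difference of -0.50 (SE 0.05, adjusted p of 6.25e-07, limma). In the PH without 14-day replicate 5, Rplp0 differed by 0.37 (adjusted p of 2.92e-04, limma) and Rps24 by -0.42 (adjusted p of 0.00133, limma).

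The batch differences went with base composition. The 21 POA genes higher in batch 2 had a median of 56.8% G and C in their coding sequence, and the 33 lower ones 49.5%, beside 52.7% over all canonical genes. Across the 77 genes, the batch difference and the G and C content had a Pearson r of 0.699 in the POA (Spearman rho 0.699) and of 0.581 (rho 0.628) in the PH without 14-day replicate 5. Over all PH libraries r was 0.428. These are correlations across genes of the same libraries. Whether base composition has a part in the difference was not tested. The labels do not say what the batches are, and each group held both.

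**Figure D4:**
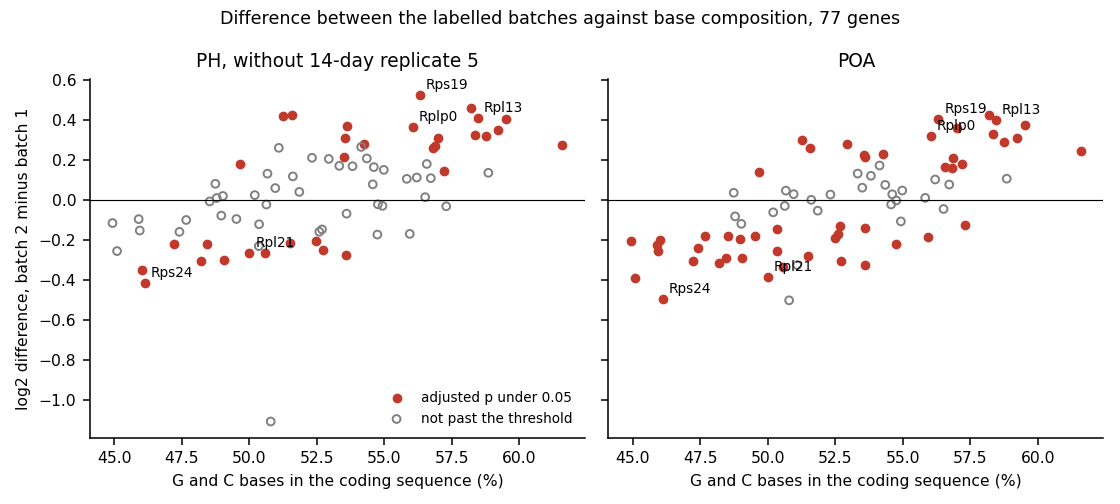
The log2 difference, batch 2 minus batch 1, is plotted against the percentage of G and C in the coding sequence for the 77 canonical genes, with filled points past an adjusted p of 0.05. Genes rich in G and C such as Rpl13, Rps19 and Rplp0 lie above 0 and genes such as Rps24 below it in both regions; the open point far below the others in the PH is Rps27.

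PH 14-day replicate 5 stood apart in the members as in other genes. In it 29 of 77 canonical genes lay above and 24 below all other PH libraries, 68.8% in all, beside 50.5% of all genes. The other libraries of either region had at most 45.5%. Its value for Rpl14 was 17625, where the other PH libraries ran from 4532 to 6590. Its value for Rpl23, a large subunit protein at the interface of the subunits, was 19025 against 5020 to 7681. Rps14, a protein of the small subunit platform, had 1553 against 5283 to 9050. Rpl12 had 142.4 against 275.8 to 546.6. In all 32 members lay 1.5 times or more from the median of the others. On sums with near-identical entries the count was 27. There Rpl12 came to 0.739 times the median of the others, beside 0.326 as a single entry, and Rpl14 to 2.72 beside 3.34. This library also has the extreme value of the surrogate variable (SV1) that enters the fit as a covariate. The 13 genes of the mitochondrial genome had a median log2 deviation of 2.34 in it, where the other PH libraries ran from -1.01 to 0.53. The part of this in its ribosomal protein values was not tested. Without the library, the count of called members at 14 days was still 0 (limma).

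Rps27 and its copy Rps27rt cannot be told apart by most of their sequence. Rps27 is a zinc finger protein of the small subunit, and Rps27rt is a retrocopy that encodes the same protein. Rps27 lies at chr3:90119819-90120977 and Rps27rt at chr9:114811434-114811807, both on the minus strand of GRCm39. Their coding sequences of 252 bases are identical, with 0 differences, and this shared sequence, from the GENCODE annotation, is printed because every 50-base stretch of it fits both genes.
Rps27 and Rps27rt: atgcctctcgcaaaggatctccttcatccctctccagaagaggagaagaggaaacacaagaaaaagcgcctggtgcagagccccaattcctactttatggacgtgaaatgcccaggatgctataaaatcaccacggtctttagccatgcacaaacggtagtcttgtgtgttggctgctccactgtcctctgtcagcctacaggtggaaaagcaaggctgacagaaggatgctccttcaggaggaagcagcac
Of the 325 windows of 50 bases in the transcript of Rps27rt, 296 (91.1%) also occur in Rps27. The copy had the higher value in 28 of 33 libraries. In the remaining 5 the order was turned round. PH 4-month replicate 3 had 7257 for Rps27 and 51.89 for Rps27rt. POA 14-day replicate 1 had 7920 and 56.02. POA intact replicate 2 had 4801 and 379.7, and POA 4-month replicates 5 and 6 had 4609 and 50.25, and 9999 and 72.86. The 5 libraries belong to all groups but PH intact and PH 14 days.

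The sum of both was far steadier than either. Rps27 ran from 184.2 to 7257 in the PH and from 91.48 to 9999 in the POA, and the sum from 2431 to 7309 and from 4659 to 10902. The SE of the log2 difference from intact was between 0.96 and 1.90 for the single genes and between 0.22 and 0.26 for the sum. For the sum the differences were 0.02 and 0.15 in PH and 0.14 and 0.03 in POA, with adjusted p of 0.941 to 0.9999 (limma, Benjamini-Hochberg). The spread lay in the split of signal between the entries more than in their sum.

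**Figure D5:**
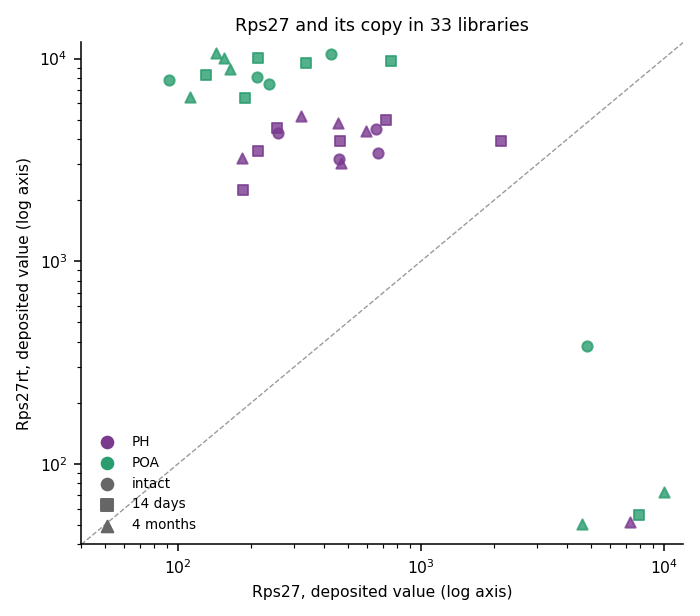
Deposited values of Rps27 and Rps27rt are plotted on log axes for the 33 libraries, with colors for the region and shapes for the group; the dashed line marks equal values. In 28 libraries the copy is higher, and 5 libraries lie below the line with Rps27 at 4609 to 9999.

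Other members also have near-identical entries. The coding sequence of Rps12, a small subunit protein, has 396 bases and occurs with 0 mismatches in the transcript of the pseudogene Rps12l1. All 350 windows of the copy occur in Rps12. Rps12l1 ran from 14.64 to 1252 in the PH and from 23.33 to 1928 in the POA, and stayed below Rps12 in every library. Their sum was not steadier than Rps12 alone. The SE of the log2 difference from intact at 14 days was 0.27 for the sum and 0.26 for Rps12 in PH, and 0.13 and 0.08 in POA. Summed with all 4 of its near-identical entries, Rps12 had a coefficient of variation of 28.7% in PH and 8.38% in POA. Alone it had 31.9% and 13.2%. Rpl37 and Rpl37rt, a copy annotated as a non-coding RNA, had 1 mismatch over 291 bases. Across the 77 canonical genes, the median share of 50-base coding windows that also occur in transcripts of other genes was 93.0%. The share was 50% or more for 67 genes and 90% or more for 44, and 1 gene had none.

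In 9 members the near-identical entries held more signal than the member itself. Rpl12 had a mean of 401.4 in the PH, and its near-identical entries together 6292, nearly all of it in Gm10275 with 6243. Rpl5 had 1047 beside 10469, and Rpl10 had 1654 beside 10400. The others were Rpl10a, Rpl11, Rpl27, Rpl27a, Rps23 and Rps27 (for Rpl27a, the PH means were 5441 and 5395, and its entries hold 50.2% of the summed signal as an average over libraries). The low place of Rpl12, Rpl5 and Rpl10 in the order of levels is therefore that of single entries. When each member was summed with its near-identical entries (181 entries for 64 genes), the median coefficient of variation was 13.9% in PH and 10.2% in POA, and it was lower than that of the single entry for 52 and 50 of the 64 genes. No member was called on the sums in any comparison (limma), with 0 at an unadjusted p under 0.05 at 14 days in either region, and 1 in PH and 2 in POA at 4 months. The medians were 0.07 and 0.04 in PH and 0.05 and 0.05 in POA.

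Of the 16 copies, 10 passed the filter on low values in PH and 11 in POA. Rpl22l1, a paralog of Rpl22, was well expressed, with 2434 to 4780 in the PH, and so was Rpl7l1, a paralog of Rpl7, with 1770 to 2398. Rpl36al had 2143 to 4887. Rps27l, a paralog of Rps27 induced by p53, had 397.4 to 874.5. In contrast, Rpl3l, the striated muscle paralog of Rpl3, had 29.18 to 52.76, close to the floor. Rpl10l, a testis paralog, stayed at 21.98 to 22.05 in the PH, which is the floor, and Rpl39l at 21.5 to 39.29. None of the tested copies was called in any comparison (limma, Benjamini-Hochberg), and in the comparisons with intact those at an unadjusted p under 0.05 were Rps4l and Rps23rg1 in the POA, given above.

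Genes that work with the ribosomal proteins gave no call either. Other mRNAs with a TOP motif (18 genes such as Eef1a1, Eef2, Pabpc1, Tpt1 and Fau) had 0 called in any comparison with intact (limma), and 1 lower at an unadjusted p under 0.05 in the POA at 14 days and 1 higher at 4 months. Their medians were 0.04 and 0.03 in PH and -0.02 and -0.01 in POA. Fau was at 0.09 and 0.08 in the PH and at 0.09 and 0.13 in the POA. Ribosome assembly factors (41 genes) had 0 called. At an unadjusted p under 0.05, 0 were higher and 1 lower in the PH at 14 days and 1 higher and 2 lower at 4 months. In the POA 0 were higher and 6 lower at 14 days, or 14.6% lower beside 3.3% of all genes, and 0 higher and 2 lower at 4 months, or 4.88% lower beside 4.4%. Their medians were 0.000596 and -0.03 in PH and -0.03 and -0.06 in POA. Gnl3, a nucleolar GTPase, had the smallest p in the PH, with -0.27 and -0.23. Among 19 regulators of mTORC1 and TOP mRNAs 0 were called, with 1 higher at an unadjusted p under 0.05 at each time in PH and 1 lower at each time in POA, and Mtor itself was at 0.27 and 0.21 in PH and 0.07 and 0.10 in POA. The 78 mitochondrial ribosomal protein genes had 0 called and medians of -0.01 and -0.02 in PH and -0.02 and -0.01 in POA. Nuclear oxidative phosphorylation genes (81 tested) had 0 called and medians of 0.04, 0.02, -0.00334 and 0.00933 in the same order, and the 13 genes of the mitochondrial genome 0 called and medians of -0.03, -0.13, -0.04 and -0.05. At an unadjusted p under 0.05 the mitochondrial ribosomal protein genes had 1 higher and 1 lower in the PH at 4 months and 1 higher and 2 lower in the POA at 14 days, the oxidative phosphorylation genes 1 lower at 14 days and 1 higher at 4 months in both regions, and the mitochondrial genome 2 lower, in the PH at 4 months.

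Markers of neurons, astrocytes, oligodendrocytes, microglia and endothelial cells were present in every library. At an unadjusted p under 0.05 (limma), 1 of 6 oligodendrocyte markers was lower at each time in PH and 2 in POA. Of 9 neuron markers 2 were lower in the PH at 4 months and 2 in the POA at 14 days. Of 3 oligodendrocyte precursor markers 1 was lower at 4 months in each region. These lists had 0 higher, and 1.47% to 4.4% of all genes were lower. Of 6 astrocyte markers 1 was higher at 4 months in each region and 0 lower. Of the hypothalamic markers, Rax was not present in every library of either region, nor Kiss1 of either region, and Hcrt and Nr5a1 not in every POA library. Red blood cell genes (Hba-a1, Hba-a2, Hbb-bs, Hbb-bt and Alas2) were measured as well. All 5 had fitted differences above 0 in all 4 comparisons with intact, with medians of 0.60 and 1.37 in PH and 0.47 and 0.85 in POA. Their summed level ran from 6507 to 8426 in intact PH libraries and from 12093 to 37251 at 4 months, and from 7050 to 16431 and 9569 to 22657 in the POA. Alas2, the first enzyme of heme synthesis in erythroid cells, passed the test in the PH at 4 months (adjusted p of 0.0301, limma, Benjamini-Hochberg). Of 6 microglial markers all were above 0 in the same comparisons, with medians of 0.12 and 0.20 in PH and 0.16 and 0.15 in POA, and C1qa, a complement component, was called in the POA at 4 months (0.43, adjusted p of 0.0428, limma). Their summed level ran from 7179 to 8025 in intact PH libraries and from 8147 to 10283 at 4 months, and from 7588 to 8396 and 8195 to 10095 in the POA. Of 6 endothelial markers 5 were above 0 in each comparison and 0 were called (limma), with 1 and 4 higher at an unadjusted p under 0.05 in PH, and 1 lower at 14 days and 3 higher and 1 lower at 4 months in POA. Their summed level was 7813 to 8220 in intact PH libraries and 9204 to 12333 at 4 months, and 7765 to 8679 and 8042 to 11667 in the POA. The part of these cell types in the small differences of the ribosomal protein genes was not tested.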

How the data were processed

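Total RNA was extracted from dissected PH and POA and stranded mRNA libraries were sequenced as 50 bp paired reads. The submitters' processing notes name kallisto, DESeq2 and the mouse build mm39. The authors deposited 1 table of normalized signal per gene and library, on a linear scale from 9.94 to 3687693 with a floor of 22.06 and no counts, so read depth is unknown. It has 42824 entries, of which 1259 carry no gene name and were left out.

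Values were log2 transformed with no pseudocount. Genes were tested when at or above 44.1, which is 2 times the floor, in at least 4 PH or 5 POA libraries. Each region was fitted with limma 3.58.1 (R 4.3.3; trend and robust) with 3 groups and 1 surrogate variable (SV1), computed by iterative reweighting in 5 rounds. The regions were compared in 1 fit of all libraries. P-values were adjusted by Benjamini-Hochberg over all genes tested, with calls at 0.05. The fit recovered known changes in simulated data, in which each gene varied on its own. Those changes were larger than most fitted here. Changes of the size of the members' medians were not simulated. The labels do not say which libraries came from separate mice, so p-values measure only the spread between these libraries, which may be technical. Coding sequences and shared 50-base windows came from GENCODE M39 (GRCm39), a later release than the authors name for protein-coding genes, and start windows from RefSeq. Scripts used Python 3.11.15, pandas 2.3.3, numpy 2.4.6 and matplotlib 3.10.9.

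Alternatives were batch in place of or beside SV1, no covariate, SV1 without the members, a replicate block, each batch alone, only the groups compared, no filter, a pseudocount of 100, median centring, quantile normalization, sums with near-identical entries, and leaving out each library. Members named are those of smallest p, of highest and lowest level, the P-stalk genes and Rpsa, copies with their parents, and qPCR reference genes. Some genes that this rule names are not reported here, though counts and medians include them. The members and gene lists were chosen with earlier results of these data known.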

Additional observations from a re-analysis of the deposited data

Results flagged for a closer look

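Within groups of 4 to 6 libraries, the highest or lowest value was set against the others by Dixon's criterion at 95%, for the 6 groups of library medians and for 114 groups of gene values from 19 genes. Chance alone marks about 1 in 20 groups of genes picked without regard to their values. That rate does not apply to several of these genes (Rpl14, Rpl23, Rps14, Rps27 and Rps27rt), which were featured for such values. In all 15 values stood apart. The POA library 14-day replicate 6 had the lowest median deviation of the canonical ribosomal protein genes in its group, -0.20, where the next was 0.01.

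In the PH 14-day group, 7 genes had an isolated value. Rpl14 reached 17625 (next 6016), Rpl21 27085 (next 16726), Rpl23 19025 (next 7528), Rpl37 5792 (next 4469), Rpl5 2312 (next 1073) and Rps12 7114 (next 4054). Rps14 was isolated at its low end, with 1553 and the next at 7324. These values come from replicate 5, and what sets that library apart was not tested. All of these genes but Rps14 also have near-identical entries. Summed with them, replicate 5 was 2.72 times the median of the other PH libraries for Rpl14 and 2.21 times for Rpl23. The sums were 2.14 times that median for Rps12, 1.96 for Rpl5, 1.67 for Rpl21 and 1.25 for Rpl37.

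The remaining values concern Rps27, Rps27rt and Rps12l1. Rps27 was isolated at its high end in the PH at 14 days with 2138 (next 719.6) and at 4 months with 7257 (next 593.4), and in the POA at 14 days with 7920 (next 752.8) and in intact mice with 4801 (next 426.3). Rps27rt was isolated at its low end in the POA at 14 days with 56.02, where the next library had 6414. Rps12l1 was isolated at its high end in the POA at 14 days with 1928 (next 138.1) and in intact mice with 676.7 (next 96.39).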

How the results depend on the processing

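The count of called members was 0 in all 8 comparisons and under every alternative run for it, including leaving out each library. Depth is unknown, and an interval within ±0.5 still allows changes of that size. Without 1 library, the number of members called between batches ran from 0 to 33 of 87 in the PH. It was 33 without PH 14-day replicate 5, where 13.3% of all genes were higher in batch 2 and 10.9% lower. It was 2 without PH intact replicate 2 or PH 4-month replicate 5. In the POA the number ran from 46 to 54 of 88. With all POA libraries, 20% of all genes were higher in batch 2 and 19.7% lower.

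Some fitted differences, none of which passed a test, changed sign. For 4 months against 14 days in the PH, Rpl12 came to 0.084 with batch in place of SV1 and with no covariate and 0.37 in batch 2 alone, and Rps27rt to 0.24 in batch 2 alone and 0.028 without PH 4-month replicate 3 (without single libraries from -1.72 to 0.028). In batch 2 alone, Rps29 in the PH at 14 days was -0.12, Rpl12 in the PH at 4 months 0.092, Rps3a2 in the POA for 4 months against 14 days 0.038, and Rpl12 in the PH minus POA response at 4 months 0.22. In batch 1 alone, Rps26 in the PH at 4 months was -0.000621 and Rps4l in the PH minus POA response at 14 days -0.011. Rps19 in that response was -0.025 with batch in place of SV1 and -0.15 in batch 2 alone. The cause was not tested.

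Replicate numbers were not taken to pair the libraries, since not every pair correlated above 0.1. Of the same-numbered pairs 9 of 14 in PH (r from -0.18 to 0.39, median 0.15) and 14 of 16 in POA (-0.31 to 0.39, median 0.26) did, and 6 of 16 and 5 of 17 libraries correlated best with their own number. Between PH and POA libraries of the same group and number 14 of 16 pairs did (-0.34 to 0.47, median 0.24), and 10 of 16 correlated best with their own number. These correlations had group means removed but not the batch difference, and most numbers belong to the same batch in every group. They therefore cannot show whether libraries of the same number share a mouse. The fit of PH minus POA treats the libraries as separate. With the replicate block the count of called members was 0 in every comparison, and the medians of members were 0.05 and -0.02 in the PH at 14 days and 4 months.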
